A study of Homo sapiens with 8 samples.

Results

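Homologous recombination, Fanconi and checkpoint kinase genes were described in 8 mRNA-seq libraries of colon cancer cells. The set held 33 genes given by symbol, each matched to 1 Ensembl gene identifier among the 64253 in the count tables, and all 33 had enough counts to enter the test, which took in 20305 genes. The list was drawn up from what the proteins do and not from a value in these libraries, although earlier results of the same libraries were known by then. HCT-8 is an established human ileocecal adenocarcinoma line, and HCT-8/FU is a line of it that resists 5-fluorouracil (5-FU), a pyrimidine analog that blocks thymidylate synthesis and enters RNA and DNA. The 4 groups, with 2 libraries each, were HCT-8 and HCT-8/FU, both in medium that was not conditioned, and HCT-8 cells in conditioned medium (CM), which had been on HCT-8 cells (group CM of HCT-8) or on HCT-8/FU cells (group CM of HCT-8/FU) for 48 h. None of the groups is described in the labels as given 5-FU before RNA was taken, and all were grown in medium with serum, penicillin and streptomycin. There was 1 resistant line, so that its resistance and any other difference from HCT-8 cannot be told apart. No label says whether the libraries of a group came from separate cultures, so p-values measure the spread between these libraries, which may be technical.

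A double-strand break in DNA is rejoined either end to end, or after its ends have been cut back to single strands that pair with the sister copy. The first route uses the Ku heterodimer (XRCC5 and XRCC6), the kinase DNA-PKcs (PRKDC) and DNA ligase IV (LIG4) with XRCC4. The second, homologous recombination, runs in S and G2 phase through the MRE11-RAD50-NBN complex and RBBP8 (CtIP), then BRCA1, PALB2 and BRCA2, which prepare the exposed strand for pairing. ATM and ATR are the kinases that read breaks and stalled forks, and they signal through CHEK2 and CHEK1 to hold the cell cycle. The Fanconi proteins mark crosslinked DNA by adding ubiquitin to FANCD2 and FANCI. Antimetabolites such as 5-FU slow replication forks, and forks under such stress are where ATR, CHEK1 and several of these repair proteins act.

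Reads had been counted per gene, and 5804124 to 34881349 counts fell on genes per library. Levels are given as counts per 1000000 counts (CPM) after scaling of the library sizes by TMM (trimmed mean of M values). Between 3.58% and 29.6% of the records of a library were not aligned, and the share was over 15% in HCT-8 replicate 1, HCT-8/FU replicate 2 and CM of HCT-8 replicate 1. Markers of colon epithelium summed to 9442 to 11783 CPM per library over 10 genes, with CEACAM5 at 0.836 CPM or less and KRT20 at 4.79 to 16.9 CPM, and 4 blood cell markers had no count in any library. The 6 fibroblast markers summed to 12.5 to 22.3 CPM per library, highest in CM of HCT-8, nearly all of it COL1A1 (8.19 to 13.8 CPM) and PDGFRB (4.35 to 9.04 CPM), with COL1A2 at 0. The 3 endothelial markers summed to 1.27 to 2.45 CPM. The part of these markers in the results was not tested. Libraries also differed in how counts followed the GC content of genes. Over all genes, Spearman's correlation of a library's deviation from the gene means with GC content was -0.49 and -0.45 for the HCT-8/FU libraries, and 0.05 and 0.21 for those of HCT-8. It was 0.37 and 0.53 for the CM of HCT-8 libraries, and -0.07 and -0.06 for those of CM of HCT-8/FU. The genes described here are long and poor in GC: their median was 40.8% GC against 49.0% over the genes tested with an annotation, and 30 of 33 lay under that median. The counts of the 33 genes are therefore also given after a correction of every library for GC content and exonic length, which would also take away a true change that runs with either.

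Promoter sequence was looked at because many genes of replication and repair are known targets of the E2F factors, which open S phase. RefSeq promoters (GRCh38.p14, 250 bases before to 50 after the start) were at hand for 28 of the 33 genes, and for 12326 of the genes tested. An E2F-type word, GGCGGGAA or GGCGCGAA on either strand, stood in 9 of the 28 (32.1%) and in 961 of the 12326 (7.80%). The CCAAT box, a promoter element bound by the factor NF-Y, searched as CCAAT on either strand, was in 18 of 28 (64.3%) against 41.7%. The word TTTGAA of the cell cycle homology region was in 3 of 28 (10.7%) against 13.6%. Words were searched one by one, so that a promoter could hold more than 1 of them, as that of BRIP1 did. Windows of 28 bases around the E2F-type word are shown for 6 genes to which the results return, each written from 5′ to 3′ on the strand of the gene, with the word, or its reverse complement, in capitals.

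CLSPN, chr1:35769967-35769994, minus strand: actctggctgGGCGGGAAagcaagaaca
TOPBP1, chr3:133661932-133661959, minus strand: ccgcgcggttGGCGCGAAagtcggttcc
RAD51AP1, chr12:4538858-4538885, plus strand: tctggttttgGGCGGGAAttgaaaccgc
RAD54L, chr1:46247629-46247656, plus strand: cgcagcactaTTCCCGCCtcttccttgg
FANCD2, chr3:10026424-10026451, plus strand: cgtcgggcctGGCGGGAAagtcgaaaac
BRIP1, chr17:61863510-61863537, minus strand: gggggcgggaGGCGGGAAttcgtctcgg

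The word of CLSPN, of FANCD2, of TOPBP1 and of BRIP1 lay within 10 bases of the start site, and that of RAD54L read on the opposite strand. A match says only that these letters are in the window.

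Levels between genes were compared per kilobase of the canonical transcript. XRCC6 stood first among the 33 genes at 138 CPM per kb in HCT-8, followed by its partner XRCC5 at 62.6 CPM per kb and PRKDC at 28.5 CPM per kb. These 3 encode the parts of the DNA-PK holoenzyme. At the other end were FANCM, a DNA translocase, at 0.617 CPM per kb, the helicase BRIP1 at 0.663 CPM per kb and FANCB, a part of the Fanconi core complex, at 0.730 CPM per kb. The order of levels says nothing of protein amounts, which were not measured here.

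Setting HCT-8/FU beside HCT-8 asks which genes differ between a resistant line and the line it came from. Most of the genes were more abundant in HCT-8/FU, and they came from every role: 26 of 33 were higher, none was lower, and the background was 13.2% higher and 8.12% lower of all genes tested. Higher here means an adjusted p of 0.05 or less and a log2 fold change of 0.58 or more, by the quasi-likelihood test of edgeR, adjusted by Benjamini-Hochberg over all genes tested, and values after ± are standard errors of a log2 fold change. The median log2 fold change was 1.09 over the 33 genes and 0.01 over all genes tested. Summed over the 33 genes, 1693 and 1665 CPM in HCT-8 stood against 2944 and 3030 CPM in HCT-8/FU. PRKDC, XRCC6 and XRCC5 held much of these sums. Their means were 384, 293 and 212 CPM in HCT-8, and 833, 295 and 272 CPM in HCT-8/FU. Once corrected for GC content and length, 21 of the 33 were higher, where 7.28% of all genes were, and the median was 0.71. The 5 that no longer passed were XRCC4, WRN, FANCI, FANCL and NBN.

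The contrast of media set the libraries of CM of HCT-8/FU over those of CM of HCT-8, to see which of the genes differ with the source of the medium. These libraries are not shared with the first comparison. Here 21 of 33 genes were higher and none was lower, with a background of 7.97% higher and 1.28% lower. The median log2 fold change was 0.82, against -0.06 over all genes tested. Every one of the 21 was also among the 26 higher in HCT-8/FU. CHEK1, FANCI, FANCL, RAD54L and XRCC4 passed in the resistant line and not in this contrast, and CHEK2, FANCA, FANCD2, PALB2, TP53BP1, XRCC5 and XRCC6 passed in neither. Summed over the 33 genes, CM of HCT-8 had 1678 and 1658 CPM, and CM of HCT-8/FU had 2265 and 2270 CPM. PRKDC, XRCC6 and XRCC5 again held much of the sums. Their means were 379, 315 and 220 CPM in CM of HCT-8, and 583, 269 and 215 CPM in CM of HCT-8/FU. Correcting for GC content and length took the count of 21 to 10 (background 2.65%) and the median to 0.37. The 10 were ATR, LIG4, BRCA1, BRCA2, BRIP1, BLM, RBBP8, RAD50, TOPBP1 and RIF1.

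**Figure D1:**
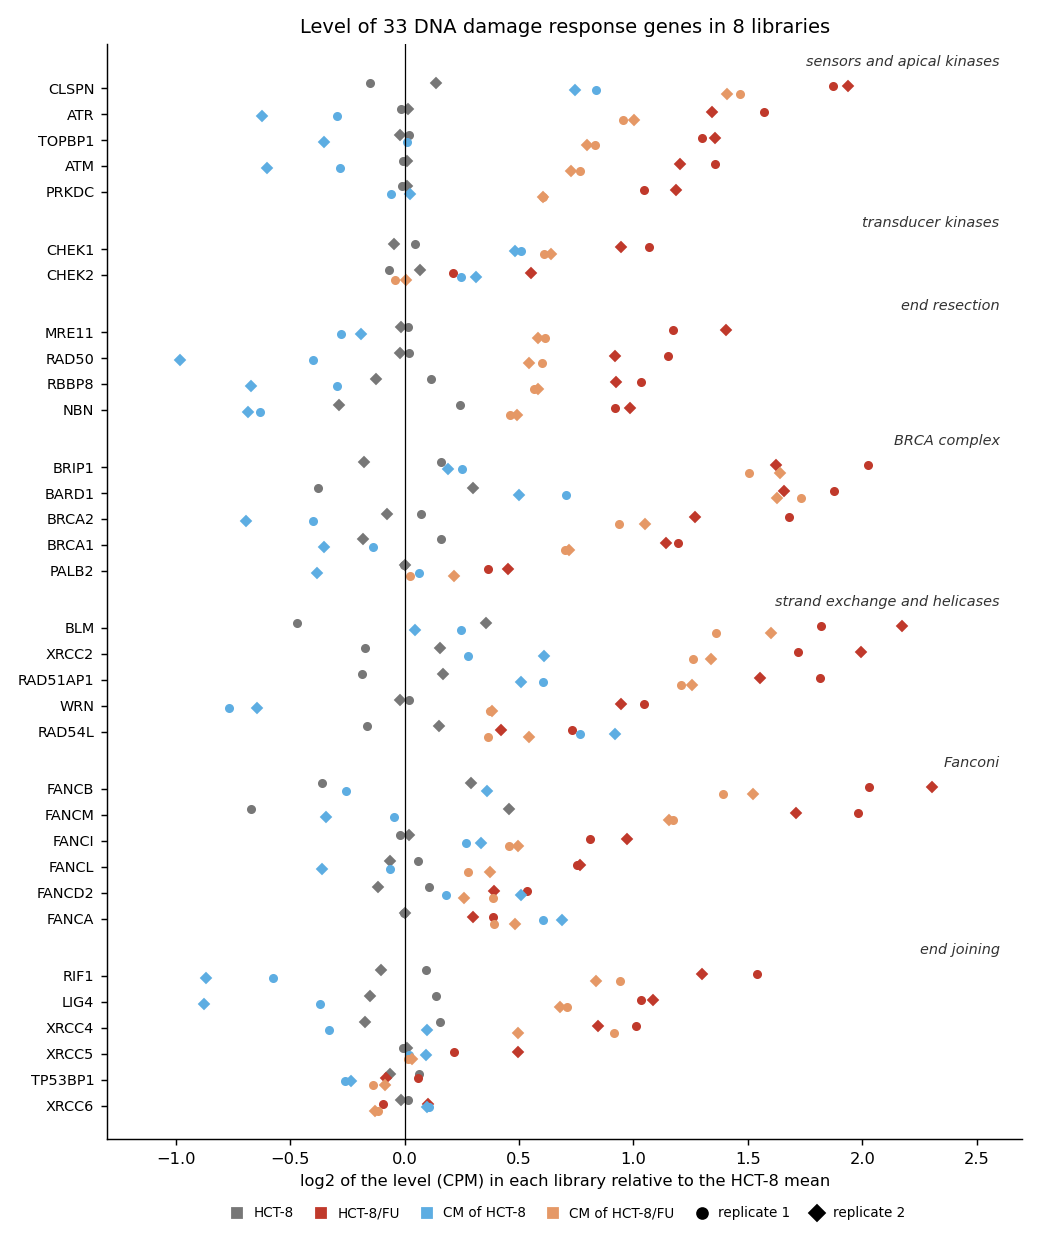
Level of each of the 33 genes in each of the 8 libraries, as log2 of CPM relative to the mean of the HCT-8 libraries, ordered by role and by fold change in HCT-8/FU. Circles are replicate 1 and diamonds replicate 2. The HCT-8/FU libraries lie farthest to the right for most genes, CM of HCT-8/FU lies between them and HCT-8, and XRCC6 and TP53BP1 stay near 0.

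Among the kinases that sense damage and the proteins that switch them on, all 5 were higher in both comparisons (background 13.2% and 7.97%). Each role held 2 to 6 genes, so that its share is a description. PRKDC encodes DNA-PKcs, which the Ku heterodimer recruits to broken ends. Its level, with replicate 1 before replicate 2 here and in what follows, was 380 and 387 CPM in HCT-8, 792 and 873 CPM in HCT-8/FU, 368 and 390 CPM in CM of HCT-8 and 583 and 584 CPM in CM of HCT-8/FU. The libraries of HCT-8/FU were highest and those of CM of HCT-8/FU next, and HCT-8 and CM of HCT-8 overlapped. In HCT-8/FU the gene was higher by 1.12 ± 0.07 on the log2 scale, adjusted p = 3.01e-08, and in the contrast of media by 0.62 ± 0.07 on the log2 scale, adjusted p = 1.42e-05. After the GC and length correction the second of these was 0.20 and no longer passed. ATM (chr11:108223044-108369102, GRCh38), the kinase that responds to double-strand breaks, stood at 67.3 and 68.1 CPM in HCT-8, 174 and 156 CPM in HCT-8/FU, 55.7 and 44.6 CPM in CM of HCT-8 and 115 and 112 CPM in CM of HCT-8/FU. The 4 groups did not overlap, and the lowest was CM of HCT-8. It was higher in HCT-8/FU by 1.29 ± 0.10 on the log2 scale, adjusted p = 1.64e-07 and in the contrast of media by 1.20 ± 0.10 on the log2 scale, adjusted p = 1.16e-06, and the latter fell short of the fold threshold after correction, at 0.45. ATR (chr3:142449007-142578733), which answers to single-stranded DNA at stalled forks, had levels of 20.5 and 20.9 CPM in HCT-8, 61.5 and 52.7 CPM in HCT-8/FU, 16.9 and 13.4 CPM in CM of HCT-8 and 40.1 and 41.5 CPM in CM of HCT-8/FU. The order of the groups was as for ATM, again with no overlap. Both contrasts were alike in size: 1.48 ± 0.12 on the log2 scale, adjusted p = 2.8e-07 in HCT-8/FU and 1.47 ± 0.12 on the log2 scale, adjusted p = 1.31e-06 in the contrast of media. Both kept their call after correction, at 0.71 and 0.61.

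TOPBP1, which activates ATR, and CLSPN (claspin), which brings CHEK1 to it, act beside the kinase. TOPBP1 was at 57.1 and 55.6 CPM in HCT-8, 139 and 144 CPM in HCT-8/FU, 56.7 and 44.2 CPM in CM of HCT-8 and 100 and 97.9 CPM in CM of HCT-8/FU. Replicate 1 of CM of HCT-8 lay between the HCT-8 libraries, and both other groups lay well above. The increase was 1.33 ± 0.10 on the log2 scale, adjusted p = 1.64e-07 in HCT-8/FU and 1.00 ± 0.10 on the log2 scale, adjusted p = 5.74e-06 in the contrast of media, and it held after correction at 0.97 and 0.67. CLSPN differed from the kinases in its order. Its levels were 9.74 and 11.9 CPM in HCT-8, 39.5 and 41.5 CPM in HCT-8/FU, 19.3 and 18.1 CPM in CM of HCT-8 and 29.8 and 28.7 CPM in CM of HCT-8/FU. No groups overlapped, and CM of HCT-8 lay above HCT-8. HCT-8/FU exceeded HCT-8 by 1.85 ± 0.12 on the log2 scale, adjusted p = 5.64e-08, and the contrast of media gave 0.65 ± 0.12 on the log2 scale, adjusted p = 0.000855. The correction left 1.63 and 0.45, the second of which is below the threshold.

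Of the transducer kinases, which take the signal to the cell cycle, 1 of 2 was higher in HCT-8/FU (background 13.2%). In the contrast of media none was (background 7.97%). CHEK1, the target of ATR, was at 18.4 and 17.3 CPM in HCT-8, 37.5 and 34.4 CPM in HCT-8/FU, 25.4 and 24.97 CPM in CM of HCT-8 and 27.2 and 27.8 CPM in CM of HCT-8/FU. HCT-8 was lowest and HCT-8/FU highest, and the groups in CM lay close together between them. It was higher in HCT-8/FU by 1.03 ± 0.11 on the log2 scale, adjusted p = 3.55e-06, whereas the contrast of media gave 0.13 ± 0.10 on the log2 scale, adjusted p = 0.44. CHEK2, the target of ATM, had levels of 20.4 and 22.4 CPM in HCT-8, 24.8 and 31.4 CPM in HCT-8/FU, 25.4 and 26.6 CPM in CM of HCT-8 and 20.8 and 21.5 CPM in CM of HCT-8/FU. CM of HCT-8 overlapped HCT-8/FU, and HCT-8 overlapped CM of HCT-8/FU. Neither contrast passed, with 0.34 ± 0.13 on the log2 scale, adjusted p = 0.0568 in HCT-8/FU and -0.30 ± 0.12 on the log2 scale, adjusted p = 0.101 in the contrast of media. CHEK2 has 7 annotated pseudogenes and its reads may have been shared with them or lost, so that its values are uncertain. BRCA1, RAD51AP1, FANCD2, RBBP8 and MRE11 have 1 annotated pseudogene each, and the same limit may hold for them.

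End resection genes were higher throughout, 4 of 4 in both comparisons (background 13.2% and 7.97%). RAD50 (chr5:132556019-132646349), the coiled-coil ATPase of the MRE11 complex, was at 74.9 and 72.97 CPM in HCT-8, 164 and 140 CPM in HCT-8/FU, 56.1 and 37.5 CPM in CM of HCT-8 and 112 and 108 CPM in CM of HCT-8/FU. No groups overlapped, and within a group the CM of HCT-8 libraries lay farthest apart in proportion. The increases were 1.05 ± 0.13 on the log2 scale, adjusted p = 1.72e-05 in HCT-8/FU and 1.28 ± 0.14 on the log2 scale, adjusted p = 9.47e-06 in the contrast of media. NBN (nibrin), which ties the complex to ATM, stood at 21.1 and 14.6 CPM in HCT-8, 33.7 and 35.3 CPM in HCT-8/FU, 11.5 and 11.1 CPM in CM of HCT-8 and 24.5 and 25.1 CPM in CM of HCT-8/FU. The highest HCT-8 library was still below both groups linked to HCT-8/FU. It was higher by 1.01 ± 0.15 on the log2 scale, adjusted p = 7.2e-05 in HCT-8/FU and by 1.14 ± 0.15 on the log2 scale, adjusted p = 6.59e-05 in the contrast of media, but by 0.28 and 0.36 after correction, where neither passed. MRE11, the nuclease, had log2 fold changes of 1.28 and 0.82, and RBBP8, which starts resection with it, of 1.02 and 1.08. After correction MRE11 kept its call in HCT-8/FU only, and RBBP8 kept it in both.

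The BRCA1 and BRCA2 branch gave 4 of 5 genes higher in each comparison (background 13.2% and 7.97%). BRCA1 (chr17:43044295-43170245), a ubiquitin ligase subunit that favours resection, was at 30.5 and 24.1 CPM in HCT-8, 62.6 and 60.3 CPM in HCT-8/FU, 24.9 and 21.4 CPM in CM of HCT-8 and 44.4 and 44.9 CPM in CM of HCT-8/FU. HCT-8 and CM of HCT-8 overlapped, and the other groups lay above both. The difference was 1.21 ± 0.12 on the log2 scale, adjusted p = 1.4e-06 in HCT-8/FU and 0.97 ± 0.12 on the log2 scale, adjusted p = 2.78e-05 in the contrast of media. BRCA2 (chr13:32315086-32400268), which acts at resected ends, was at 14.1 and 12.7 CPM in HCT-8, 42.8 and 32.3 CPM in HCT-8/FU, 10.1 and 8.29 CPM in CM of HCT-8 and 25.6 and 27.7 CPM in CM of HCT-8/FU. No groups overlapped, though the spread within HCT-8/FU was wide. Its increases were 1.55 ± 0.15 on the log2 scale, adjusted p = 1.41e-06 and 1.57 ± 0.15 on the log2 scale, adjusted p = 4.69e-06, in the same order, and remained at 0.83 and 0.84 after correction, both past the test.

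The other partners of BRCA1 and BRCA2 completed this branch, and PALB2 stood apart from them. BRIP1, a helicase bound by BRCA1, had the highest fold of the branch in HCT-8/FU, with 1.94 ± 0.19 on the log2 scale, adjusted p = 1.39e-06, and rose by 1.36 ± 0.18 on the log2 scale, adjusted p = 6.46e-05 in the contrast of media. BARD1, the partner of BRCA1 in its ligase, had log2 fold changes of 1.68 and 1.10, and of 1.07 and 0.51 after correction, where the second did not pass. PALB2, which joins BRCA1 to BRCA2, did not pass: its libraries lay between 10.3 and 18.4 CPM, and its log2 fold changes were 0.40 ± 0.17 on the log2 scale, adjusted p = 0.0742 and 0.31 ± 0.16 on the log2 scale, adjusted p = 0.207.

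Of the genes for strand exchange and helicases, 5 of 5 were higher in HCT-8/FU (background 13.2%) and 4 of 5 in the contrast of media (7.97%). XRCC2, which takes part in strand exchange, was at 6.58 and 8.25 CPM in HCT-8, 24.4 and 29.6 CPM in HCT-8/FU, 8.98 and 11.3 CPM in CM of HCT-8 and 17.8 and 18.7 CPM in CM of HCT-8/FU. The groups did not overlap, with CM of HCT-8 above HCT-8. It was higher by 1.78 ± 0.17 on the log2 scale, adjusted p = 1.07e-06 and 0.81 ± 0.16 on the log2 scale, adjusted p = 0.00196. RAD51AP1, which promotes strand invasion, was at 6.85 and 8.75 CPM in HCT-8, 27.4 and 22.9 CPM in HCT-8/FU, 11.9 and 11.1 CPM in CM of HCT-8 and 18.03 and 18.6 CPM in CM of HCT-8/FU, in the same order and without overlap. Its increase was 1.66 ± 0.16 on the log2 scale, adjusted p = 1.06e-06 in HCT-8/FU and 0.68 ± 0.15 on the log2 scale, adjusted p = 0.00411 in the contrast of media. The second of these did not pass once CM of HCT-8/FU replicate 2 was left out. After correction the contrast of media gave 0.37 for XRCC2 and 0.14 for RAD51AP1, and neither passed, while both kept their call in HCT-8/FU. RAD54L, a DNA motor that works in strand invasion, differed from these in order. Its levels were 12.2 and 15.2 CPM in HCT-8, 22.8 and 18.4 CPM in HCT-8/FU, 23.4 and 25.99 CPM in CM of HCT-8 and 17.7 and 20.01 CPM in CM of HCT-8/FU. CM of HCT-8 was the highest group and HCT-8 the lowest. In HCT-8/FU it was at the threshold, 0.58 ± 0.15 on the log2 scale, adjusted p = 0.00678, a call that was lost when any library was left out, other than replicate 2 of HCT-8 and of HCT-8/FU. The contrast of media gave -0.40 ± 0.14 on the log2 scale, adjusted p = 0.0569. Reads of an overlapping gene on the opposite strand may touch 19.9% of its exonic bases, and whether the counting used strand is not stated in the methods or labels.

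The RecQ helicases BLM and WRN were both higher in both comparisons. BLM, which dissolves crossed DNA strands, had log2 fold changes of 1.84 and 1.36 and kept both calls after correction, at 1.48 and 1.03. WRN, mutated in Werner syndrome, was at 15.3 and 14.9 CPM in HCT-8, 31.1 and 29.1 CPM in HCT-8/FU, 8.86 and 9.64 CPM in CM of HCT-8 and 19.6 and 19.7 CPM in CM of HCT-8/FU. CM of HCT-8 was below HCT-8 with no overlap between groups. Its increases were 1.01 ± 0.12 on the log2 scale, adjusted p = 1.36e-05 and 1.07 ± 0.13 on the log2 scale, adjusted p = 2.61e-05, and were 0.42 and 0.50 after correction, short of the fold threshold.

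Of the Fanconi genes, 4 of 6 were higher in HCT-8/FU (background 13.2%) and 2 of 6 in the contrast of media (7.97%). FANCD2 and FANCA passed the adjusted p alone in HCT-8/FU. FANCD2, the protein that receives ubiquitin at crosslinks, was at 32.6 and 28.03 CPM in HCT-8, 43.9 and 39.8 CPM in HCT-8/FU, 34.4 and 43.2 CPM in CM of HCT-8 and 39.7 and 36.4 CPM in CM of HCT-8/FU. HCT-8 was the lowest, and CM of HCT-8 overlapped both of the groups linked to the resistant line. In HCT-8/FU it passed the adjusted p but not the fold threshold, with 0.50 ± 0.13 on the log2 scale, adjusted p = 0.00519, and the contrast of media gave -0.05 ± 0.12 on the log2 scale, adjusted p = 0.821. FANCI, which pairs with it, was at 51.2 and 52.6 CPM in HCT-8, 91.1 and 102 CPM in HCT-8/FU, 62.6 and 65.4 CPM in CM of HCT-8 and 71.2 and 73.3 CPM in CM of HCT-8/FU. It was higher in HCT-8/FU by 0.88 ± 0.09 on the log2 scale, adjusted p = 1.78e-06, and in the contrast of media the value was 0.17 ± 0.08 on the log2 scale, adjusted p = 0.178. FANCA, a core complex subunit, had levels of 63.5 and 63.7 CPM in HCT-8, 83.1 and 78.2 CPM in HCT-8/FU, 96.6 and 102 CPM in CM of HCT-8 and 83.3 and 88.9 CPM in CM of HCT-8/FU. HCT-8 was lowest and CM of HCT-8 highest, and no groups overlapped. Its contrasts were 0.35 ± 0.08 on the log2 scale, adjusted p = 0.00388 and -0.21 ± 0.08 on the log2 scale, adjusted p = 0.0757, and 19.6% of its exonic bases overlap genes on the opposite strand.

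The other Fanconi genes were of low abundance or close to the threshold. FANCB was at 1.71 to 2.69 CPM in HCT-8 and 8.97 to 10.9 CPM in HCT-8/FU, the largest fold of all 33 genes, with 2.02 ± 0.27 on the log2 scale, adjusted p = 2.83e-05, and it was higher in the contrast of media by 1.29 ± 0.26 on the log2 scale, adjusted p = 0.00274. FANCM had log2 fold changes of 1.71 and 1.39. After correction FANCB and FANCM kept their call in HCT-8/FU, and in the contrast of media they had 0.64 and 0.61 and did not pass. FANCL, the ubiquitin ligase of the complex, had 0.77 and 0.56, of which the second passed the adjusted p and missed the fold threshold. After correction the values of FANCL were 0.01 and -0.32, and neither passed. The correction took its length as 37977 bases, over the exons of all transcripts, while its canonical transcript has 1658.

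Of the genes for end joining, 3 of 6 were higher in HCT-8/FU (background 13.2%) and 2 of 6 in the contrast of media (7.97%). LIG4 (chr13:108207439-108218368), the ligase of this route, was at 17.5 and 14.3 CPM in HCT-8, 32.6 and 33.8 CPM in HCT-8/FU, 12.3 and 8.66 CPM in CM of HCT-8 and 26.01 and 25.5 CPM in CM of HCT-8/FU. The groups did not overlap. It was higher by 1.09 ± 0.15 on the log2 scale, adjusted p = 4.07e-05 in HCT-8/FU and by 1.36 ± 0.15 on the log2 scale, adjusted p = 1.6e-05 in the contrast of media, and by 0.66 and 0.97 after correction, both past the test. RIF1 (chr2:151409883-151508013), which acts with TP53BP1 to keep ends from being resected, was at 57.5 and 50.1 CPM in HCT-8, 157 and 133 CPM in HCT-8/FU, 36.1 and 29.5 CPM in CM of HCT-8 and 103 and 96.2 CPM in CM of HCT-8/FU. CM of HCT-8 was lowest and HCT-8/FU highest, without overlap. With 1.45 ± 0.11 on the log2 scale, adjusted p = 1.64e-07 and 1.63 ± 0.11 on the log2 scale, adjusted p = 5.55e-07, it had the largest fold of the 33 genes in the contrast of media.

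The Ku genes and TP53BP1 (53BP1) behaved differently. XRCC5 (Ku80) was at 210 and 213 CPM in HCT-8, 245 and 299 CPM in HCT-8/FU, 215 and 226 CPM in CM of HCT-8 and 213 and 216 CPM in CM of HCT-8/FU. The HCT-8/FU libraries were the highest and lay above those of every other group. Its contrasts were 0.35 ± 0.09 on the log2 scale, adjusted p = 0.00433 in HCT-8/FU and -0.04 ± 0.08 on the log2 scale, adjusted p = 0.82 in the contrast of media, so that only the first passed the adjusted p, and by less than the fold threshold. XRCC6 (Ku70) was at 297 and 290 CPM in HCT-8, 275 and 315 CPM in HCT-8/FU, 316 and 314 CPM in CM of HCT-8 and 271 and 268 CPM in CM of HCT-8/FU. The HCT-8/FU libraries lay on either side of those of HCT-8, with 0.00 ± 0.08 on the log2 scale, adjusted p = 0.976. In the contrast of media it was lower by the adjusted p alone, with -0.22 ± 0.07 on the log2 scale, adjusted p = 0.0448, and edgeR's adjusted p was 0.616 after correction. XRCC6 has 5 annotated pseudogenes, which could take up some of its reads. TP53BP1 lay between 84.8 and 106 CPM in all 8 libraries, with log2 fold changes of 0.01 and 0.13, and 28.8% of its exonic bases overlap genes on the opposite strand. XRCC4, the partner of LIG4, had few counts and wide errors, with 1.01 ± 0.29 on the log2 scale, adjusted p = 0.013 and 0.76 ± 0.28 on the log2 scale, adjusted p = 0.0669.

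**Figure D2:**
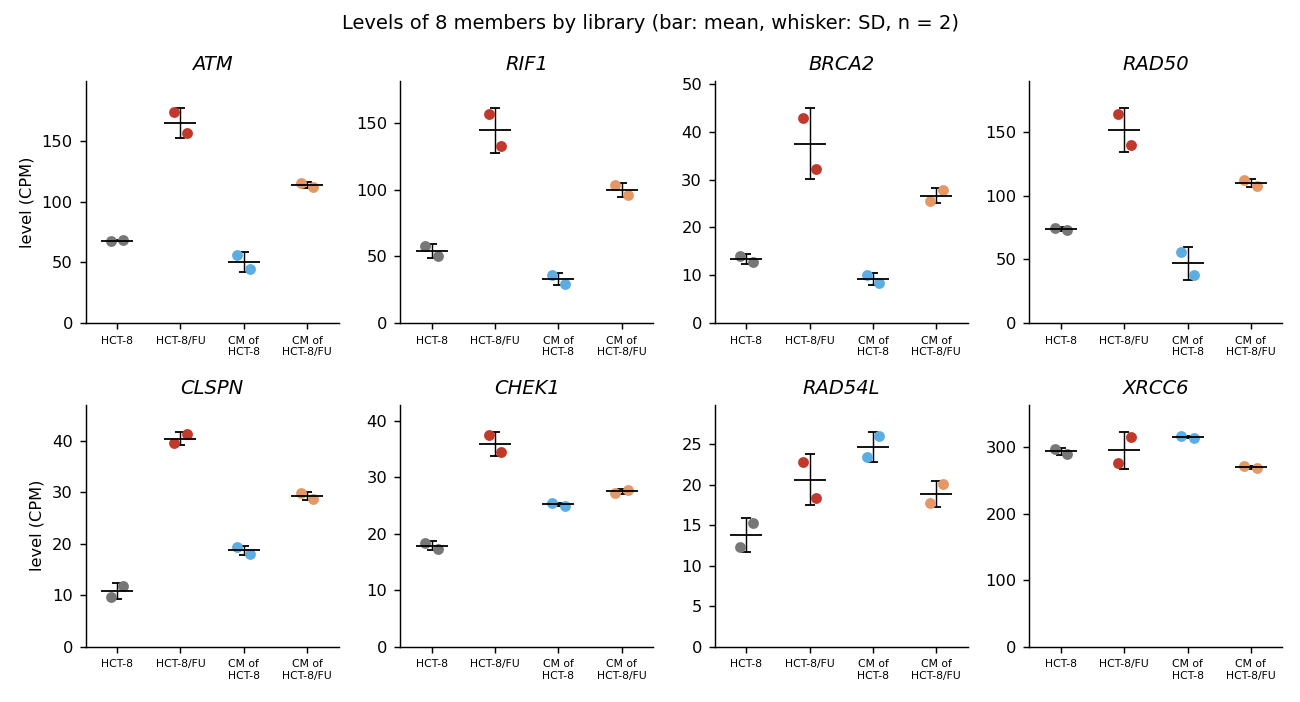
Level in CPM of 8 of the genes in each library (points, by group), with the mean and SD of the group (n = 2). ATM, RIF1, BRCA2 and RAD50 are lowest in CM of HCT-8 and high in HCT-8/FU and with its medium, CLSPN and CHEK1 are lowest in HCT-8, RAD54L is highest in CM of HCT-8, and XRCC6 stays between 268 and 316 CPM.

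CM of HCT-8 against HCT-8 shows what medium from the same line goes with. Medium from the sensitive line went with lower levels of 5 genes and higher levels of 3, and the background was 3.86% higher and 4.29% lower. The median was -0.02 over the 33 genes and 0.01 over all genes tested. Lower were RIF1 (-0.72 ± 0.12 on the log2 scale, adjusted p = 0.00058), RAD50 (-0.70 ± 0.14 on the log2 scale, adjusted p = 0.00254), WRN (-0.69 ± 0.13 on the log2 scale, adjusted p = 0.00233), LIG4 (-0.63 ± 0.17 on the log2 scale, adjusted p = 0.0144) and NBN (-0.60 ± 0.16 on the log2 scale, adjusted p = 0.0166). These act in end protection, resection, unwinding and ligation. Higher were RAD54L (0.81 ± 0.15 on the log2 scale, adjusted p = 0.00135), CLSPN (0.74 ± 0.13 on the log2 scale, adjusted p = 0.000986) and FANCA (0.65 ± 0.08 on the log2 scale, adjusted p = 8.88e-05). After the correction for GC content and length none of the 5 was lower and 7 genes were higher, which added CHEK1, BARD1, RAD51AP1 and XRCC2 to those 3, with a background of 2.76% higher and 2.72% lower. With 1 library left out, the log2 fold change ranged from -0.90 to -0.55 for RIF1, -0.98 to -0.40 for RAD50 and -0.78 to -0.64 for WRN. It ranged from -0.88 to -0.33 for LIG4 and from -0.97 to -0.38 for NBN. Of these 5, only WRN kept to the fold threshold in every such fit, as did RAD54L, CLSPN and FANCA among the higher.

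CM of HCT-8/FU was also compared with HCT-8 in medium that was not conditioned, which shares the HCT-8 libraries with the first comparison and those of CM of HCT-8/FU with the second. Against this control 19 of 33 were higher and none lower, with a background of 7.16% higher and 3.28% lower, and the median was 0.64. BRIP1 had 1.63 ± 0.18 on the log2 scale, adjusted p = 1.96e-05, BARD1 1.57 ± 0.20 on the log2 scale, adjusted p = 4.92e-05 and CLSPN 1.39 ± 0.12 on the log2 scale, adjusted p = 2.5e-06. RAD50, NBN and WRN, which were higher against CM of HCT-8, had 0.57, 0.54 and 0.38 here and missed the fold threshold. The count was 9 after the correction (background 3.99%): BRCA2, BARD1, BRIP1, RAD51AP1, BLM, FANCB, XRCC2, TOPBP1 and CLSPN. Without HCT-8 replicate 2, and before the correction, CHEK1, LIG4, BRCA1, RBBP8 and MRE11 had 0.57, 0.55, 0.54, 0.45 and 0.57, short of the fold threshold.

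**Figure D3:**
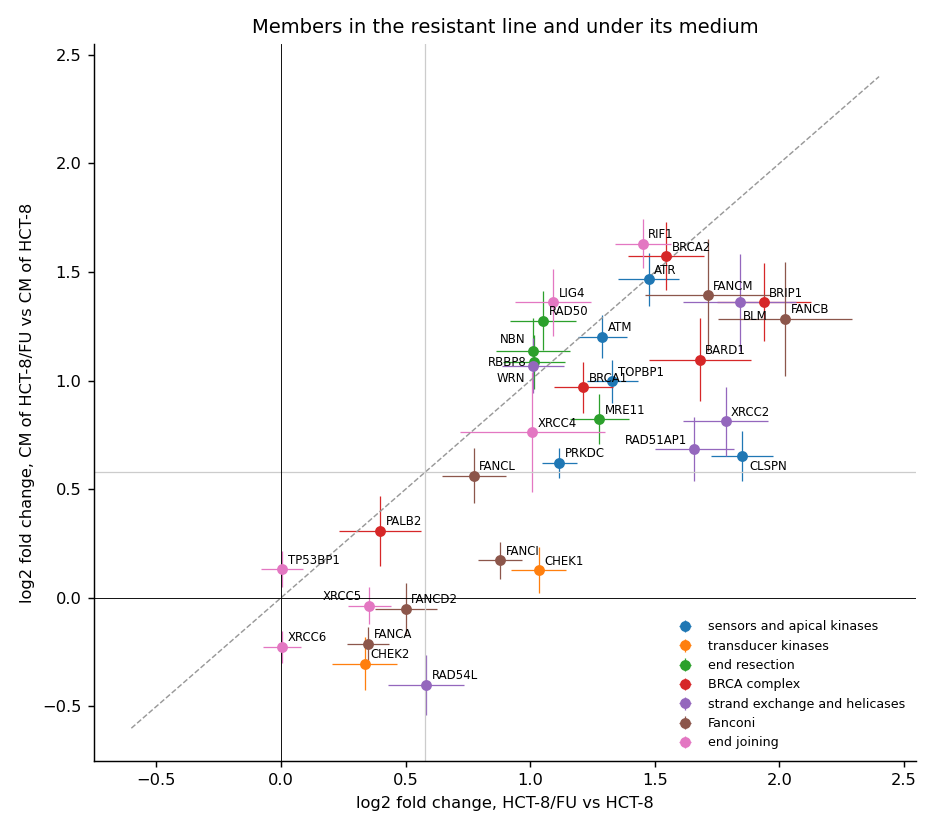
Log2 fold change of the 33 genes in HCT-8/FU against HCT-8 (horizontal) and in the contrast of media (vertical), coloured by role, with standard errors. The dashed line marks equal values and the grey lines 0.58. ATR, BRCA2, RIF1, RAD50 and LIG4 lie at or above the line, and CLSPN, RAD54L, RAD51AP1, XRCC2, CHEK1 and FANCB lie farthest under it.

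The log2 fold changes in the resistant line and under its medium were ordered alike over the 33 genes, with a Spearman correlation of 0.73, against 0.43 over all genes tested. These are genes of the same libraries that share depth and base composition, and the values are a description. Whether the increase differed between the comparisons was tested as an interaction. It was larger in the resistant line, past both thresholds, for 7 of 33 genes and smaller for none, with a background of 3.55% larger and 4.14% smaller. They were CLSPN (1.20 ± 0.17 on the log2 scale, adjusted p = 0.000313), RAD54L (0.98 ± 0.21 on the log2 scale, adjusted p = 0.00574), RAD51AP1 (0.97 ± 0.22 on the log2 scale, adjusted p = 0.00815), XRCC2 (0.97 ± 0.23 on the log2 scale, adjusted p = 0.0127), CHEK1 (0.91 ± 0.15 on the log2 scale, adjusted p = 0.00119), FANCI (0.71 ± 0.12 on the log2 scale, adjusted p = 0.00144) and CHEK2 (0.64 ± 0.18 on the log2 scale, adjusted p = 0.031). Of these 7, CHEK2 passed in neither contrast by itself, with 0.34 in HCT-8/FU and -0.30 in the contrast of media. RAD54L was also below 0 in the contrast of media, at -0.40. PRKDC, FANCA and XRCC5 passed the adjusted p alone, which made 10 of 33 by that rule (background 5.15%). The increases had different references. In CM of HCT-8 against HCT-8 the log2 fold change was above 0 for all 7, from 0.27 for CHEK2 to 0.81 for RAD54L. It was 0.65 for FANCA, 0.06 for XRCC5 and -0.02 for PRKDC. A larger increase therefore need not be a higher level: FANCA averaged 80.7 CPM in HCT-8/FU and 86.1 CPM in CM of HCT-8/FU. ATR, BRCA2, RIF1 and LIG4 had differences of 0.01, -0.03, -0.18 and -0.27, with standard errors of 0.17, 0.21, 0.16 and 0.22. Corrected for GC content and length, 7 genes passed (background 3.25%), with FANCA in place of CHEK2. Without CM of HCT-8/FU replicate 1 some of the 7 called before correction were lost, and CHEK1, RAD54L, FANCI and CLSPN were kept.

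Members with and without an E2F-type word in the promoter had different medians in the 4 contrasts, given here without a test. In HCT-8/FU against HCT-8 the median log2 fold change was 1.66 over the 9 with the word and 1.09 over the 19 without. In CM of HCT-8 against HCT-8 it was 0.40 and -0.22, and in the contrast of media it was 0.68 and 1.08. Between CM of HCT-8/FU and HCT-8 the medians were 1.18 and 0.73, the opposite order to that of the contrast of media. These medians were not corrected for GC content. RAD51AP1, RAD54L, XRCC2 and CLSPN, which hold the word, were among the 7 genes with a larger increase in the resistant line. BRIP1, BLM, FANCD2, FANCL and TOPBP1 hold it too and were not among the 7. No promoter was at hand for FANCI, which was. The share of holders with such a difference was not counted over all genes tested, and a link to the word was not tested.

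**Figure D4:**
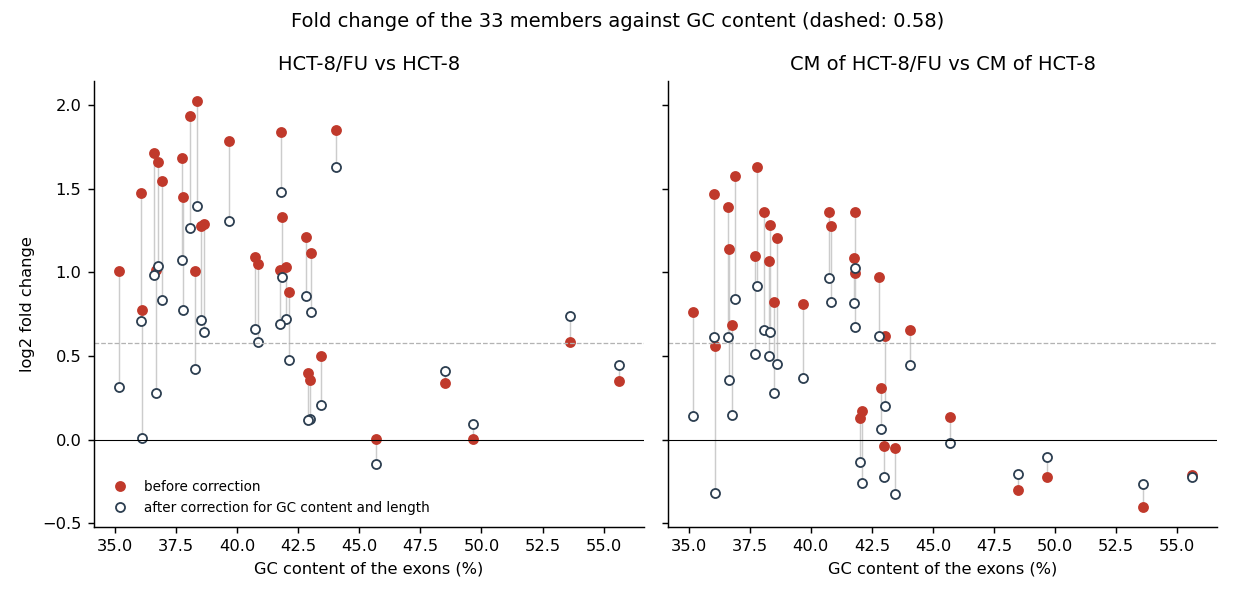
Log2 fold change of each of the 33 genes against the GC content of its exons, in HCT-8/FU against HCT-8 (left) and in the contrast of media (right), before (filled) and after (open) the correction for GC content and length. The values of genes under 45% GC move down in both panels, and CLSPN is the highest on the left after correction, at 1.63.

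Fold changes also followed GC content among the 33 genes themselves. Spearman's correlation of the log2 fold change with GC content was -0.52 over the 33 genes and -0.40 over all genes in HCT-8/FU against HCT-8. In the contrast of media it was -0.71 and -0.40, and in CM of HCT-8 against HCT-8 it was 0.45 and 0.30. RAD54L, FANCA, XRCC6 and CHEK2, at 48.5% to 55.6% GC, are the members richest in GC, and none of these 4 was higher in the contrast of media.

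Other genes of the same pathways, 77 in all, were followed in the same fits. In HCT-8/FU 20 (26.0%) were higher and 8 (10.4%) lower, where all genes gave 13.2% and 8.12%. In the contrast of media 9 (11.7%) were higher and none lower, where all genes gave 7.97% and 1.28%. Their median log2 fold changes were 0.21 and -0.15. Among 27 more genes of homologous recombination, HCT-8/FU had 9 higher and 1 lower, led by RAD54B, a relative of RAD54L (2.04 ± 0.28 on the log2 scale, adjusted p = 4e-05), the resection nuclease DNA2 (1.71 ± 0.16 on the log2 scale, adjusted p = 1.2e-06) and RMI1, which works with BLM (1.59 ± 0.16 on the log2 scale, adjusted p = 1.84e-06), with the nuclease subunit MUS81 lower (-0.60 ± 0.09 on the log2 scale, adjusted p = 0.000115). In the contrast of media 4 of these 27 were higher, led by the resolvase GEN1 (1.56 ± 0.14 on the log2 scale, adjusted p = 1.89e-06), RECQL (1.09 ± 0.11 on the log2 scale, adjusted p = 4.56e-06) and RMI1 (1.00 ± 0.15 on the log2 scale, adjusted p = 0.000225).

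Of 16 further Fanconi genes, 12.5% were higher in HCT-8/FU, near the share over all genes, and as many were lower. REV3L, the catalytic subunit of polymerase zeta (1.15 ± 0.10 on the log2 scale, adjusted p = 5.72e-07), and USP1, which removes ubiquitin from FANCD2 (0.74 ± 0.09 on the log2 scale, adjusted p = 7.81e-06), were higher in HCT-8/FU, and FAAP20 (-0.75 ± 0.09 on the log2 scale, adjusted p = 9.95e-06) and FANCE (-0.74 ± 0.15 on the log2 scale, adjusted p = 0.00137) were lower. REV3L (1.61 ± 0.11 on the log2 scale, adjusted p = 4.01e-07) and USP1 (0.91 ± 0.09 on the log2 scale, adjusted p = 3.75e-06) were also the 2 that were higher in the contrast of media. Of 20 further checkpoint genes, HCT-8/FU had 5 higher and 2 lower, led by ETAA1, which activates ATR (1.23 ± 0.17 on the log2 scale, adjusted p = 3.96e-05), the histone H2AX (0.79 ± 0.09 on the log2 scale, adjusted p = 7.46e-06) and TIPIN (0.66 ± 0.17 on the log2 scale, adjusted p = 0.00639), with RAD9A, a subunit of the checkpoint clamp, among the lower (-0.60 ± 0.13 on the log2 scale, adjusted p = 0.00162). ETAA1 was the only one of them higher in the contrast of media (0.90 ± 0.17 on the log2 scale, adjusted p = 0.00143).

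Of 14 further genes of end joining, HCT-8/FU had 4 higher and 3 lower. POLQ, the polymerase of joining by short homologies, was the highest of them (2.36 ± 0.13 on the log2 scale, adjusted p = 1.08e-08), ahead of APLF (1.18 ± 0.39 on the log2 scale, adjusted p = 0.0261) and SHLD2 (0.86 ± 0.11 on the log2 scale, adjusted p = 1.42e-05). The X family polymerases POLM (-0.79 ± 0.15 on the log2 scale, adjusted p = 0.00059) and POLL (-0.74 ± 0.11 on the log2 scale, adjusted p = 0.000105) and the ligase LIG3 (-0.59 ± 0.10 on the log2 scale, adjusted p = 0.000179) were lower. POLQ (1.08 ± 0.12 on the log2 scale, adjusted p = 1.56e-05) and SHLD2 (0.92 ± 0.10 on the log2 scale, adjusted p = 1.42e-05) were higher in the contrast of media as well. After the correction the 77 genes gave 12 higher and 4 lower in HCT-8/FU, and 5 higher and 1 lower in the contrast of media.

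Many of these genes are transcribed in S or G2 phase, so 40 genes of the cell cycle were counted beside them. In HCT-8/FU 13 of 20 S phase genes were higher and 1 lower, and 14 of 20 mitosis genes were higher. In the contrast of media, 1 S phase gene was higher and 1 lower, and 9 of 20 mitosis genes were higher. S phase genes summed to 1176 to 1217 CPM in HCT-8, 1770 to 2146 CPM in HCT-8/FU, and in the media 1902 to 1922 CPM (CM of HCT-8) and 1644 to 1647 CPM (CM of HCT-8/FU). Mitosis genes summed to 719 to 750 CPM, 1944 to 2024 CPM, 854 to 1016 CPM and 1424 CPM in the same order. The mitosis sums were highest in HCT-8/FU, with CM of HCT-8/FU next, and the S phase sums were higher in CM of HCT-8 than in CM of HCT-8/FU. Of the 20 S phase genes, 12 were higher in CM of HCT-8 than in HCT-8, led by UHRF1 (1.55 ± 0.12 on the log2 scale, adjusted p = 1.73e-06), and 3 mitosis genes were higher and 1 lower. The part of the cell cycle in the values of the 33 genes was not tested, and in bulk libraries a larger share of cells in a phase and more RNA per cell cannot be told apart.

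**Figure D5:**
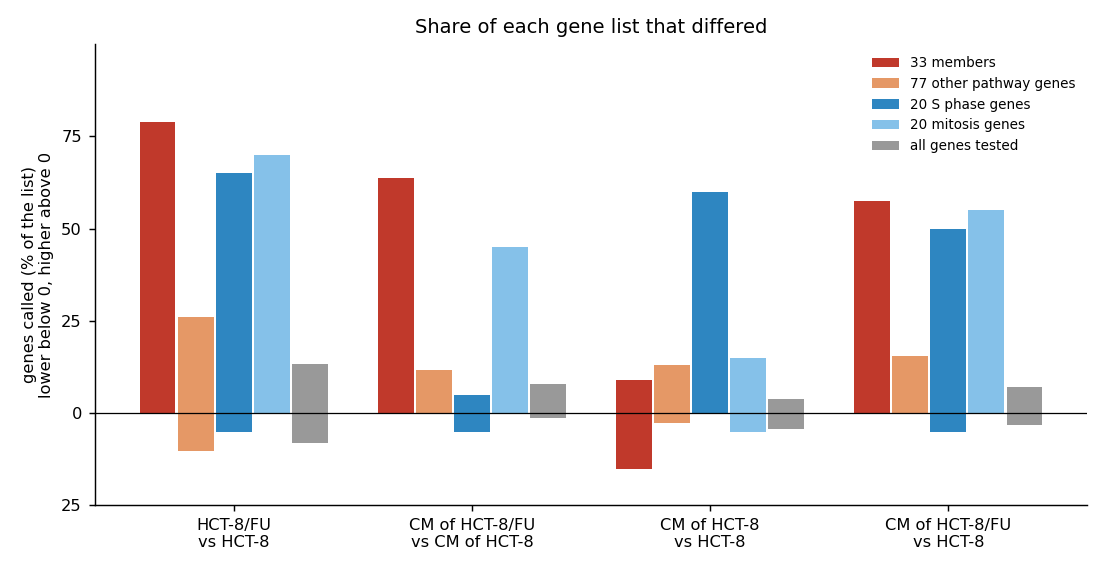
Percent of the genes of each list that were higher (above 0) or lower (below 0) in each of 4 comparisons, past an adjusted p of 0.05 and a log2 fold change of 0.58. The 33 genes have the tallest bar in every comparison but CM of HCT-8 against HCT-8, where the S phase list does.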

How the data were processed

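mRNA-seq libraries of the 4 groups, 2 of each, were analysed. Per the labels and the methods, the authors aligned reads to GRCh38 with HISAT2, used SAMtools 1.18, and counted per gene with HTSeq 0.11.2; the deposited values are raw counts. Neither states whether counting used strand. Lines that name no gene (33.7% to 49.6% of records with no feature, 3.58% to 29.6% not aligned) stayed out of library sizes. The authors' DESeq2 1.30.0 tables hold base means, log2 fold changes, errors, test statistics and p-values, and were not used.

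Counts were fitted over all 8 libraries in R 4.3.3 with edgeR 4.0.16 (TMM, filterByExpr, quasi-likelihood test, Benjamini-Hochberg adjustment over 20305 genes). The standard error was taken as the absolute log2 fold change over the square root of F. Thresholds were an FDR of 0.05 and a log2 fold change of 0.58, after the study. Positions, lengths and GC content came from GENCODE 44, on the same build, for 19857 tested genes. Exonic length and GC content were taken over the exons of all annotated transcripts of a gene together. These can be far longer than the canonical transcript, as for NBN (19417 against 4622 bases) and FANCI (17853 against 4733). The correction subtracted from each library a spline (5 degrees of freedom) on GC content and log exonic length. The other alternatives were DESeq2 1.42.0, its size factors, another TMM reference, other filters, the compared groups alone, a term for libraries with over 15% not aligned, FDR alone, a replicate block, and leaving out each library. The scripts were tested on simulated counts.

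The members and the gene lists were chosen with earlier results of these data known. Per-library values were given for the 5 members of smallest p in each main comparison, those lower in a comparison, those whose increases differed, and 11 listed by name in the rule. Of the further genes, the 3 largest changes in each direction were named, except for a result that is not reported here. UHRF1 and the markers CEACAM5, KRT20, COL1A1, COL1A2 and PDGFRB were named after their values were seen. Libraries held 5804124 to 34881349 counts on genes, and the spread within each group exceeded sampling noise. CPM and counts carry counting error that is widest for FANCB, FANCM and XRCC4.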

Additional observations from a re-analysis of the deposited data

Results flagged for a closer look

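For 10 of the 33 genes the increase in HCT-8/FU against HCT-8 was larger than that between the media (CM of HCT-8/FU over CM of HCT-8), by the interaction term of edgeR's quasi-likelihood test (adjusted p of 0.05 or less). By this rule the background was 5.15% of all genes tested. The difference of the log2 fold changes was 1.20 for CLSPN, 0.98 for RAD54L, 0.97 for RAD51AP1, 0.97 for XRCC2, 0.91 for CHEK1 and 0.71 for FANCI. It was 0.64 for CHEK2, 0.56 for FANCA, 0.50 for PRKDC and 0.39 for XRCC5. None of the 33 had a significantly smaller increase in the resistant line. The increases had different references. In CM of HCT-8 against HCT-8 the log2 fold change was above 0 for all 10 but PRKDC (-0.02), with 0.81 for RAD54L, 0.74 for CLSPN and 0.65 for FANCA. RAD54L, FANCA, CHEK2 and XRCC5 had log2 fold changes below 0 in the contrast of media that did not pass the test. CHEK2 did not pass in HCT-8/FU against HCT-8 either.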

How the results depend on the processing

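In the alternatives none of the 33 genes was lower in HCT-8/FU. The count of those higher stayed between 20 and 29, the 29 by FDR alone, where 3770 of all 20305 genes tested were higher. It ranged from 24 to 26 when 1 library was left out. For the contrast of media (CM of HCT-8/FU over CM of HCT-8) leaving out 1 library gave 20 to 22, and for CM of HCT-8/FU against HCT-8 it gave 14 to 21. The counts fell from 21 to 10 and from 19 to 9 after the correction for GC content and length, with or without the replicate block. For CM of HCT-8 against HCT-8 the count of 8 became 16 (7 higher, 9 lower) by FDR alone and ranged from 4 to 12 with 1 library left out. The correction changed it from 3 higher and 5 lower to 7 higher and none lower. For the difference of the increases the range was 4 to 9 around 7. The cause of these changes was not tested. The share of all genes that passed with 1 library left out is not given here.

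Among the lists, the 77 further genes gave 28 in HCT-8/FU and 16 after correction, and the 40 cell cycle genes gave 11 in the contrast of media and 6 after it. Over all genes tested that contrast gave 1878 and 954, and CM of HCT-8 against HCT-8 gave 1655 and 1089. By FDR alone all genes gave 7442, 4005, 3949, 5017 and 2350 in place of 4325, 1878, 1655, 2120 and 1561, in the order of the comparisons in the report. Leaving out HCT-8 replicate 2 took the cell cycle genes with a different increase from 27 to 14. Leaving out HCT-8 replicate 1 took the further genes in CM of HCT-8 against HCT-8 from 12 to 5.

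Same-numbered replicates did not deviate together (correlations from -0.12 to 0.13). This cannot exclude paired cultures, since in most groups the replicates differed in depth and share not aligned, and the labels name no pairs. With the replicate block the counts were 26, 21, 8, 19 and 7, as without it. At 5804124 to 34881349 counts per library, the genes at a few CPM (FANCB, FANCM, XRCC4) had standard errors of 0.25 to 0.29 in HCT-8/FU against HCT-8.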
